A study of Mus musculus with 20 samples.

Results

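The genes described here are Ctsd, Ctsb and Lyz2, which encode 2 lysosomal proteases and the lysozyme of macrophages. The data are those of all clones annotated to these genes on spotted cDNA arrays that compared mouse RNA of the Fob3b line with RNA of the F line. They came to 6 clones of 15360, each printed as a pair of spots. The first array design held 1 clone of each gene, probe 3667 for Lyz2, probe 5863 for Ctsb and probe 1252 for Ctsd. The second design held 3 clones of Ctsd, probes 23429, 23840 and 26720, and neither of the other genes. The genes had been chosen by ratios between the lines measured on these same arrays, so every such ratio of a member is given as a description, with no test.

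Mice of the F line come from selection for obesity. The Fob3b line has the same genetic background but holds lean-line alleles at Fob3b, a locus for obesity on chromosome 15, and the labels name no other allele, agent, age, sex or diet. Liver and brown adipose tissue, the fat depot that makes heat, were each sampled as total RNA in 2 pools per line, of an unstated number of animals. Pools of the same number were paired across the lines, and each pair was hybridised with the dyes both ways round, so n was 2 pool pairs per tissue. With both pairs, the first design covered liver and brown adipose tissue on 4 arrays each, and the second covered liver on 4 arrays. Brown adipose tissue of the second design came from pool pair 1, on 2 arrays. The remaining arrays were all of liver: 2 of a pool against itself (first design), 2 that paired unlike pool numbers across the lines and 2 of pool 2 against pool 1 inside a line (second design). For 3 arrays the text label and the channel labels disagree, and the channel labels were used. These are the brown adipose pair of the second design, which the text calls F line in both channels although a channel is labelled Fob3b, and the self-self array of the Fob3b line.

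Each value is a log ratio of the dyes, taken here as log2, with the median of the clones of its array set to 0 and turned so that Fob3b is over F if red was divided by green. The sources used here do not state the numerator. If it was green, every sign below turns round together, so ratios are called positive or negative and not higher or lower in a line. Ratios carry no level, so the tissue labels could not be checked against marker levels, and a lower share of a cell type and less RNA per cell cannot be told apart. The SD over the clones of an array was 0.318 to 0.631 for the first design and 0.155 to 0.302 for the second, and the paired spots correlated at 0.760 to 0.932 and at 0.636 to 0.865. For the members the paired spots differed by a median of 0.07 and by at most 0.31.

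Lysosomes break down protein, lipid and sugar chains that reach them by endocytosis or autophagy. Cathepsin D is their main aspartic protease and cathepsin B an abundant cysteine protease, both made as inactive precursors and active in acid. Most cells make both, and macrophages make large amounts. Lysozyme 2, also called lysozyme M, cuts bacterial cell walls and is the lysozyme of macrophages and neutrophils. Liver holds resident macrophages, the Kupffer cells, and adipose tissue also holds macrophages. Transcription factors of the TFEB family switch on many lysosomal genes through E-box-like sites, and PU.1 is a regulator of macrophage genes.

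On assembly GRCm38.p6 of RefSeq, Ctsd lies on chromosome 7 from 142375910 to 142387827, Ctsb on chromosome 14 from 63122462 to 63145923 and Lyz2 on chromosome 10 from 117277541 to 117282272. None is on chromosome 15, where the Fob3b locus lies. The sources used here do not say which part of a transcript a clone covers. The 250 bases before the start of Ctsd and Lyz2 are printed, the 2 members that the promoter table used here holds, to show which lysosomal and macrophage gene motifs they carry. Both were searched on both strands for CACGTG, the E-box core, for TCACGTGA, which contains it, and for GAGGAAGT, a PU.1-type sequence. Capitals mark the matches, the strand is minus for both, and the windows are chr7:142387828-142388077 and chr10:117282273-117282522.
Ctsd: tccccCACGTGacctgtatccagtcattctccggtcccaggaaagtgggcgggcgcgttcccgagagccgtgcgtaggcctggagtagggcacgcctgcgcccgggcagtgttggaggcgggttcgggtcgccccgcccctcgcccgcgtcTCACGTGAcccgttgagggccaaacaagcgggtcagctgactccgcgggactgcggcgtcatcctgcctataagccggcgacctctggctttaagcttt
Lyz2: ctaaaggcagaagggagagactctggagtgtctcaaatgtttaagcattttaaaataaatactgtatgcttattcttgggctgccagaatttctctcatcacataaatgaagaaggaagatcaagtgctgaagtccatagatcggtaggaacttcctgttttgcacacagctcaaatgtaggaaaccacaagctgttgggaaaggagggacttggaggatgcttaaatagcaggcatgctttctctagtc
Ctsd held CACGTG at 245 to 240 and at 98 to 93 bases before its start, and the second of these lies inside a TCACGTGA. None of the 3 sequences was found in the Lyz2 window. Only exact matches were searched, so a site that differs by a single letter would be missed. Among 32851 promoter windows of this length 6.02% held CACGTG, 0.785% held TCACGTGA and 2.44% held GAGGAAGT. The matches describe letters in the windows and show no binding.

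The arrays asked which transcripts differ between the lines. With whole arrays centred, Ctsd lay near 0 in liver and was positive in all 10 values of brown adipose tissue, counted over clones and arrays. For liver on the first design pool pair 1 gave -0.21 with Fob3b in red and -0.39 with Fob3b in green, and pool pair 2 gave 0.05 and 0.13. The pool pairs lay on opposite sides of 0, and the mean was -0.10 ± 0.27 (SD, n = 2 pool pairs). With each printing block set to a median of 0, pool pair 1 had -0.30 and -0.89 and pool pair 2 had 0.17 and -0.12. The mean was then -0.29. With whole arrays centred, the 3 clones of the second design averaged -0.11, -0.02 and 0.06. Their gene mean was -0.02 ± 0.13 (SD, n = 2 pool pairs), or 0.05 with printing blocks centred. With whole arrays centred, none of these clones had 1 sign on all 4 liver arrays, whereas 19.0% of all clones did. Probe 23429 varied most, with -0.57 and -0.09 in pool pair 1 and 0.33 and -0.09 in pool pair 2, red first. On the arrays with the pools crossed between the lines, the 3 clones averaged 0.07, but the arrays disagreed in sign. The clones had -0.22, -0.09 and -0.15 with Fob3b in green, and 0.45, 0.14 and 0.26 with Fob3b in red. Pool 2 was in red on both arrays.

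Arrays of 2 pools of the same line gave Ctsd ratios in liver without a difference of line. They had no dye swap, so a dye ratio of the clone can be part of their values. Pool 2, in red, over pool 1 gave 0.22, 0.25 and 0.26 for the 3 clones within the Fob3b line, and 0.27, 0.00046 and 0.23 within the F line. Of these 6 ratios, 5 were further from 0 than the mean liver ratio between the lines of any of the 3 clones. Those means average both dye orientations and the 6 ratios do not, so the sizes are not directly comparable. Over the 10 arrays of the second design the dye ratios of the clones, not turned by line, correlated at 0.70, 0.67 and 0.89. These values describe clones that share every array. No such array of brown adipose tissue was analysed here.

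In brown adipose tissue every Ctsd ratio was positive. On the first design, pool pair 1 gave 0.33 with Fob3b in red and 0.67 with Fob3b in green, and pool pair 2 gave 0.44 and 0.42. All 4 arrays were positive, and the pool pairs averaged 0.50 and 0.43. The mean was 0.47 ± 0.05 (SD, n = 2 pool pairs), a ratio of 1.38-fold, and 0.716% of clones had a larger mean. It was the only member clone of 3 that was positive on all 4 brown adipose arrays of that design, where 2.58% of all clones were.

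The 3 Ctsd clones of the second design gave the same sign in pool pair 1, on the 2 arrays whose text and channel labels disagree. Probe 23429 had 0.60 with Fob3b in red and 0.28 with Fob3b in green. Probe 23840 had 0.51 and 0.48, and probe 26720 had 0.40 and 0.45. The clones' means were 0.44, 0.49 and 0.42, with 1.63%, 1.17% and 1.85% of clones above them, and the gene mean of 0.45 corresponds to 1.37-fold. All 3 clones were positive on both arrays, as were 29.9% of all clones. With 1 pool pair these values have no biological replicate, and clones of 1 gene share their RNA and arrays. Not every gene kept its sign in pool pair 1 from the first design to the second. The skeletal muscle gene Tpm2 had -0.89 and then 0.73, and M6pr had 0.27 and then -0.37. Npc2, with 0.39 and 0.36, and Sparc, with 0.14 and 0.55, kept theirs. Whether the labels of the 2 arrays have a part in this was not tested. Over both designs, the 10 brown adipose ratios of Ctsd ran from 0.28 to 0.67 with a median of 0.45.

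The evenness of Ctsd on the first design depended on how the arrays were centred. Its printing block of 160 clones had medians of -0.31 and -1.04 on the pool pair 1 arrays with Fob3b in red and in green, and of -0.63 and -0.45 on those of pool pair 2. With each block set to a median of 0, probe 1252 had 0.65 and -0.37 in pool pair 1 and 1.07 and -0.04 in pool pair 2. Both arrays with Fob3b in green then turned negative, and the mean was 0.33. The 6 ratios of the second design all stayed positive, from 0.32 to 0.49. Of all 10 ratios, 8 were then positive, with a median of 0.40.

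**Figure D1:**
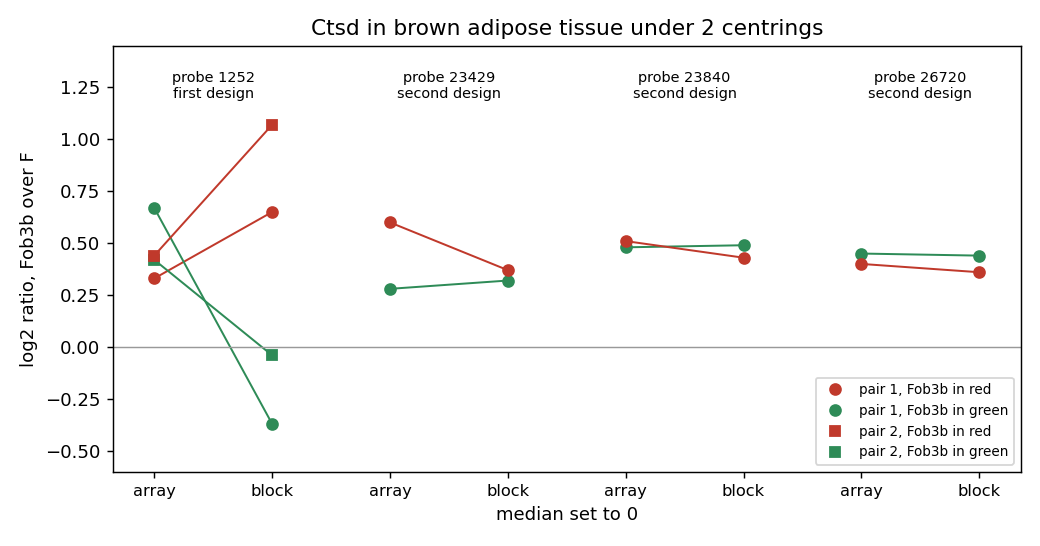
Log2 ratio of Fob3b over F (vertical axis) for the 4 Ctsd clones in brown adipose tissue, with the median of the whole array or of the clone's printing block set to 0; a line joins the same array. The 4 arrays of probe 1252 lie from 0.33 to 0.67 under array centring and from -0.37 to 1.07 under block centring, whereas the 3 clones of the second design stay positive.

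Liver minus brown adipose tissue for probe 1252 was -0.57 with a limma SE of 0.28 on the first design. No clone of 7680 passed an adjusted p of 0.05 in that contrast (limma, Benjamini-Hochberg), 0% called, and 220 had an unadjusted p under 0.05.

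Ctsb gave no even ratio in either tissue. In liver, pool pair 1 gave -0.23 with Fob3b in red and -2.18 with Fob3b in green, and pool pair 2 gave 0.07 and 0.26. The mean of -0.52 ± 0.97 (SD, n = 2 pool pairs) rests on 1 array, and without it the mean was -0.03. On that array both spots of the clone read 2.18 on the dye scale before turning, and 42 of 7680 clones lay above it. It held 638 clones above 1 and 72 above 2, and 26 of the 160 clones in the printing block of Ctsb were above 1. The 10 clones printed within 5 positions of Ctsb ran from -0.36 to 1.31. The part of this array's spread in the value was not tested.

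Ctsb in brown adipose tissue had 0.24 with Fob3b in red and 0.53 with Fob3b in green in pool pair 1, and 0.63 and -0.52 in pool pair 2. The last of these is the only negative array. The mean was 0.22 ± 0.23 (SD, n = 2 pool pairs), and the dye orientations of pool pair 2 differ by more than that mean.

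Lyz2 was negative in liver on every array of the line comparison. Pool pair 1 gave -0.50 with Fob3b in red and -0.29 with Fob3b in green, and pool pair 2 gave -0.30 and -0.69. The mean was -0.44 ± 0.07 (SD, n = 2 pool pairs), a ratio of 1.36-fold on the negative side, and 2.58% of clones had a smaller mean. It was the only member clone of 3 negative on all 4 liver arrays of the first design, as were 3.44% of all clones. With printing blocks centred, pool pair 1 had -0.66 and -0.56 and pool pair 2 had -0.32 and 0.22, so the last array turned positive and the mean was -0.33.

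Lyz2 in brown adipose tissue had -0.01 with Fob3b in red and -0.35 with Fob3b in green in pool pair 1, and 0.18 and 0.12 in pool pair 2. The pool pairs lay on opposite sides of 0, with a mean of -0.01 ± 0.23 (SD, n = 2 pool pairs). Its neighbour Lyz1, a lysozyme best known from Paneth cells of the gut, lies on chromosome 10 from 117287795 to 117292868 and was not measured. The first 50 transcribed bases of Lyz2 and Lyz1 are identical at 49 positions, and whether the Lyz2 clone also binds Lyz1 transcripts was not tested.

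**Figure D2:**
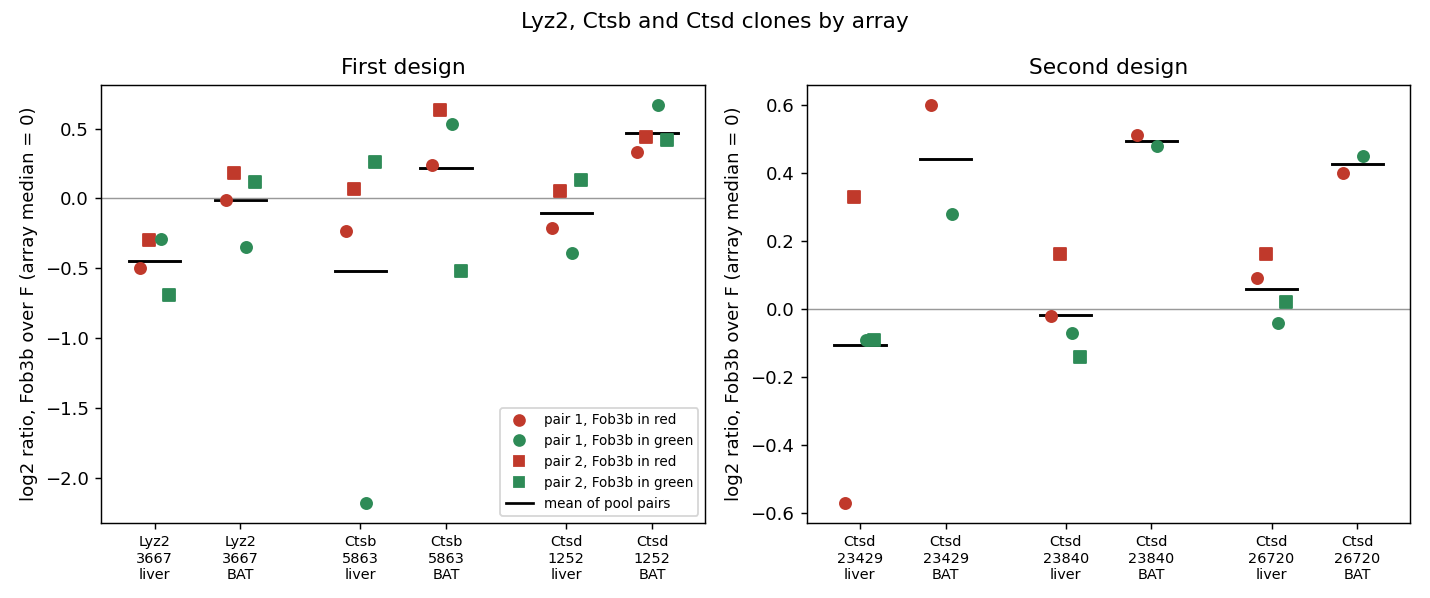
Log2 ratio of Fob3b over F (vertical axis, a different range in each panel) for each member clone in liver and brown adipose tissue (BAT), with 1 point per array, shape for the pool pair, colour for the dye of the Fob3b pool and a bar for the mean of the pool pairs. Ctsd lies above 0 on all brown adipose arrays of both designs, Lyz2 lies below 0 on all 4 liver arrays, and 1 liver array puts Ctsb at -2.18.

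The arrays of a liver pool against itself gave the size of a dye ratio with no difference of sample. Ctsd had -0.43 on the Fob3b self-self array and -0.64 on the F array. Ctsb had -0.83 and -0.65, and Lyz2 had -0.02 and -0.24, in the same order. Both values of Ctsb were further from 0 than its brown adipose mean of 0.22, and those of Ctsd lay to either side, in size, of its mean of 0.47. Averaging the dye orientations removes a dye ratio that is the same on both arrays. The turned ratios of the 2 orientations correlated over clones at 0.16 and -0.29 for the liver pool pairs of the first design and at -0.23 and -0.60 for the brown adipose pairs. For the second design these correlations were 0.08 and 0.40 in liver and 0.47 in brown adipose tissue.

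**Figure D3:**
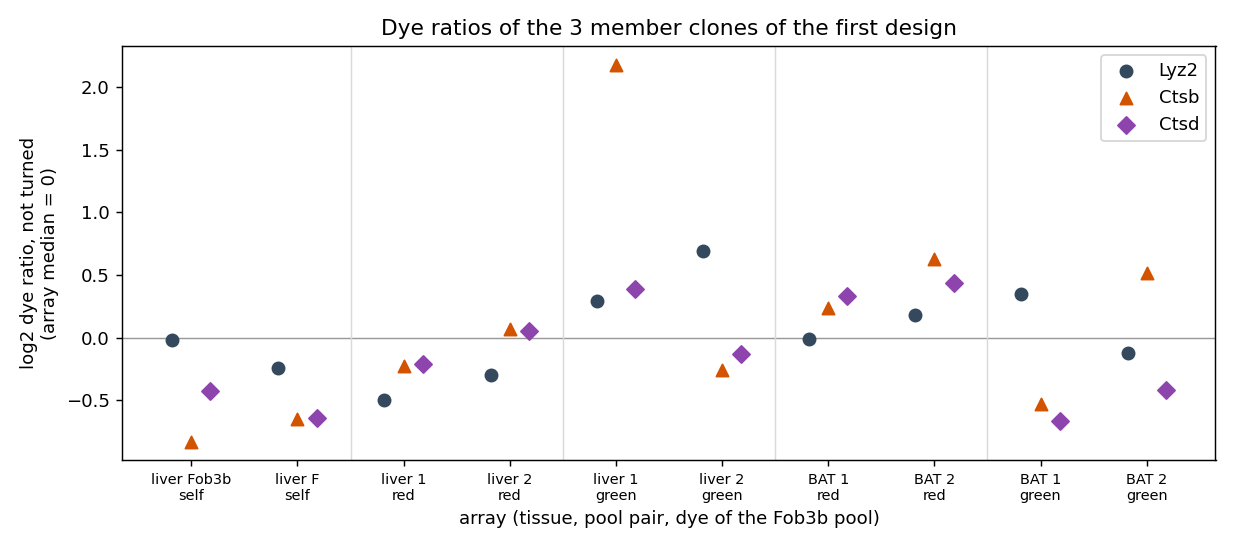
Log2 dye ratio (vertical axis), not turned by line, of Lyz2, Ctsb and Ctsd on the 10 arrays of the first design, grouped as self-self arrays, liver and brown adipose tissue (BAT) by the dye of the Fob3b pool. Ctsd changes side with the dye in brown adipose tissue, with 0.33 and 0.44 where Fob3b is in red and -0.67 and -0.42 where Fob3b is in green, and the self-self arrays put Ctsb and Ctsd between -0.83 and -0.43.

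In the fits across all 7680 clones of a design, limma called 0 clones in liver of the first design, 0% of all, with 253 at an unadjusted p under 0.05. It called 0 in brown adipose tissue, 0% of all, with 65 unadjusted. In liver of the second design it called 29 clones, 0.378% of all, and none of them was a Ctsd clone. The brown adipose tissue of the second design has 1 pool pair and no test. Since the ratios had chosen the members, nothing is read for them from these counts, nor from the counts of clones with 1 sign above.

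Other lysosomal and immune genes of the arrays were taken from lists. No clone of any list was called in the 3 tested fits, so what follows describes signs and not calls. On the first design 319 of 3838 genes had 1 sign on all 4 liver arrays, and 240 on all 4 brown adipose arrays. On the second design 776 of 4075 genes had 1 sign on all 4 liver arrays, and 2580 on both brown adipose arrays. Among lysosomal proteases in liver of the first design, 1 of 7 measured genes was positive, Dpp7, and the median was -0.20, against 44.9% of all genes and a median of -0.02. Cathepsin C (Ctsc), which activates serine proteases of granules, had -0.31. Cathepsin L (Ctsl), another cysteine protease, had -0.28, legumain (Lgmn), which processes cathepsins, -0.23 and cathepsin Z (Ctsz), a carboxypeptidase, -0.20. None of the 7 genes had 1 sign on all 4 arrays. Several were negative in pool pair 1 and positive in pool pair 2: Ctsl had -0.77 and 0.22, Ctsz -0.64 and 0.24, Tpp1 -0.37 and 0.13 and Ctsh -0.21 and 0.06. Both pool pairs were negative for Ctsc, at -0.36 and -0.25, and for Lgmn, at -0.41 and -0.04.

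The same list in brown adipose tissue had 5 of 7 genes positive and a median of 0.07, or 0.03 with printing blocks centred, against 59.3% of all genes and a median of 0.03. Lgmn had 0.28, Ctsc 0.21 and Ctsl 0.08, none with 1 sign. Ctsz was the only gene of the list with 1 sign, at -0.13. The second design measured 2 further proteases. Ctsa, cathepsin A, had 0.08 in liver and 0.14 in brown adipose tissue, and Prcp, a prolyl carboxypeptidase, had -0.42 in liver, negative on all 4 arrays, and -0.14 in brown adipose tissue. Ctss, Ctse and Napsa were not measured.

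Inhibitors of cathepsins were few. Cystatin C (Cst3), a secreted inhibitor, had -0.11 in liver and 0.25 in brown adipose tissue, and cystatin B (Cstb), a cytosolic inhibitor, had -0.09 and 0.08. Their median was -0.10 in liver and 0.16 in brown adipose tissue. Of the 3 inhibitors of the second design 1 was positive in each tissue, against 51.4% of all genes in liver and 56.1% in brown adipose tissue. The inhibitor medians were -0.09 in liver and -0.24 in brown adipose tissue, or -0.12 and -0.10 with printing blocks centred. Stefin A1 (Stfa1) had -0.27 in liver and -0.24 in brown adipose tissue, negative on every array. Serpinb1a, an inhibitor of neutrophil proteases, had 0.17 in liver and -0.31 in brown adipose tissue, with 1 sign within each tissue.

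Lysosomal hydrolases and their activators lay close to all genes on the first design. In liver 5 of 10 were positive, against 44.9% of all genes, with a median of 0.00029, or 0.04 with printing blocks centred. No gene there had 1 sign. In brown adipose tissue 6 of 10 were positive, against 59.3% of all genes, with a median of 0.03, which was -0.01 with printing blocks centred. Gusb, the β-glucuronidase, was positive on all 4 arrays at 0.15. For liver of the second design 8 of 14 were positive with a median of 0.04, against 51.4% of all genes and a median of 0.004, and acid ceramidase (Asah1) at 0.14 and Plbd2 at -0.07 had 1 sign. For its brown adipose tissue 10 of 14 were positive with a median of 0.10, or 0.04 with printing blocks centred, against 56.1% of all genes and a median of 0.03. Arsa, the arylsulfatase that degrades sulfatide, had 0.27, and prosaposin (Psap), the precursor of sphingolipid activator proteins, had 0.24. Ppt1, a thioesterase, also had 0.24, and Asah1 had -0.20.

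Among lysosomal membrane, cholesterol-export and acidification genes, 6 of 15 were positive in liver of the first design, against 44.9% of all genes. The list median was -0.02, or -0.09 with printing blocks centred. Clcn7, a chloride-proton exchanger, was positive on all 4 arrays at 0.14, and Atp6v0a1, a subunit of the proton pump, was negative on all at -0.18. In brown adipose tissue 13 of 15 were positive with a median of 0.07, against 59.3% of all genes and a median of 0.03. None of the 15 had 1 sign on all 4 arrays there. Npc2, which binds cholesterol inside the lysosome, had the highest mean of the list at 0.52 but was positive on 2 of 4 arrays. Tfeb, the regulator of lysosomal genes, had 0.39, the mean of 0.74 in pool pair 1 and 0.05 in pool pair 2. Of 18 such genes on the second design, 12 were positive in liver, against 51.4% of all genes, with a median of 0.02. In its brown adipose tissue 10 were positive, against 56.1% of all genes, with a median of 0.04, which was -0.01 with printing blocks centred. There Npc2 had 0.36, Laptm4b 0.37, the pump subunit Atp6v1h 0.33 and the mannose 6-phosphate receptor M6pr, which carries new lysosomal enzymes to the lysosome, -0.37.

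Macrophage markers are given beside Lyz2. Of 37 macrophage markers, 3 were measured on the first design. In liver Laptm5, a lysosomal protein of blood cells, had -0.26, Hmox1, the haem oxygenase of cells that clear red cells, -0.26 and Cybb, the catalytic subunit of the phagocyte oxidase, 0.08. None had 1 sign on all 4 arrays. Laptm5 in brown adipose tissue had 0.10, Hmox1 -0.07 and Cybb -0.16. Of the 7 markers on the second design, 4 were positive in liver, against 51.4% of all genes, with a median of 0.02, and none there had 1 sign. For brown adipose tissue 3 of 7 were positive, against 56.1% of all genes, with a median of -0.01, which was 0.08 with printing blocks centred. The oxidase subunit Cyba had 0.30, the Fc receptor Fcgr1 0.15 and the receptor chain Fcer1g -0.19. Each of these 3 had 1 sign on its 2 arrays, as had 2580 of all 4075 genes. The complement genes C1qa and C1qb had -0.05 and -0.02. The defining markers Adgre1, Cd68 and Csf1r were not measured, and the part of macrophage number in the ratios of the members was not tested.

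**Figure D4:**
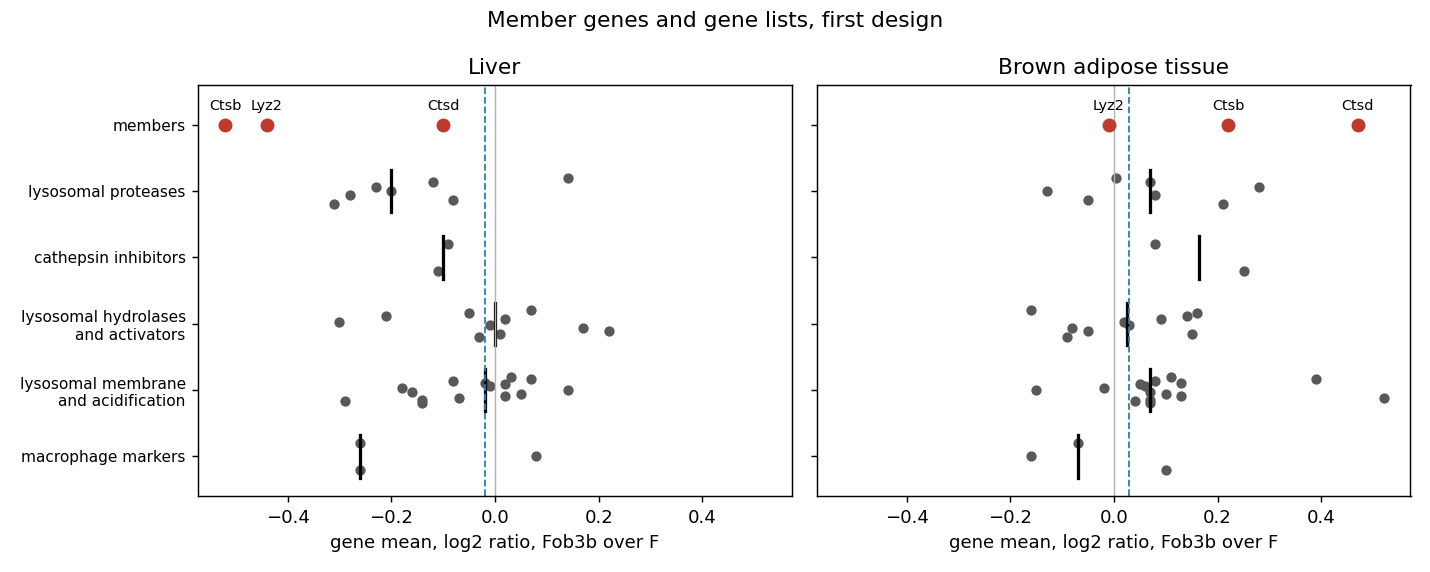
Gene means (horizontal axis, log2 ratio of Fob3b over F) in liver and brown adipose tissue on the first design, for the members, 4 lists of lysosomal proteases, cathepsin inhibitors, hydrolases, and membrane and acidification genes, and macrophage markers, with 1 point per gene, a black bar at each list's median and a dashed line at the median of all genes. Ctsb and Lyz2 lie at -0.52 and -0.44 in liver, left of every gene of these 5 lists, and Ctsd lies at 0.47 in brown adipose tissue, where Npc2 at 0.52 is the only gene of these lists beyond it. The members had been chosen by such ratios, so nothing is read from their place beside the lists. The Ctsb mean in liver rests on 1 array, and is -0.03 without it.

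Markers of other cell types were also measured in small numbers. The 2 skeletal muscle genes of the first design, Actn3 and Tpm2, had -0.47 and -0.58 in brown adipose tissue, whereas Mylpf and Tpm2 on the second design had 0.69 and 0.73. The second-design values are of pool pair 1, in which Tpm2 had -0.89 on the first design. In liver of the first design all 5 hepatocyte genes had negative means, as did 2113 of all 3838 genes. The hepatocyte median was -0.17, or -0.37 with printing blocks centred, against -0.02 for all genes. Alb, serum albumin, had -0.74, the mean of -1.26 and -0.22 in the pool pairs. The others were negative in pool pair 1 and positive in pool pair 2: Ttr had -0.47 and 0.16, Apoa1 -0.65 and 0.31, Apob -1.01 and 0.24 and Fga -0.39 and 0.11. The hepatocyte median in brown adipose tissue was -0.05, or -0.08 with printing blocks centred. Neutrophil markers, measured only on the second design, had medians of 0.03 in liver and -0.25 in brown adipose tissue. In liver 2 of 4 were positive, against 51.4% of all genes: Lcn2 had 0.42, Csf3r 0.11, S100a9 -0.05 and Ltf -0.07. In brown adipose tissue 1 of 4 was positive, against 56.1% of all genes: S100a9 and Ltf each had -0.36, Lcn2 -0.15 and Csf3r 0.07. With printing blocks centred the neutrophil medians were 0.09 in liver and -0.12 in brown adipose tissue. Adipocyte markers had medians of -0.18 in liver and -0.07 in brown adipose tissue of the first design and of 0.04 and 0.01 on the second, the last being -0.03 with printing blocks centred. Endothelial and stromal markers had medians of 0.09 in liver and 0.21 in brown adipose tissue of the first design. Cdh5, the cadherin of endothelial cells, was positive on all 4 liver arrays there, at 0.64. Their medians on the second design were -0.04 in liver and -0.01 in brown adipose tissue, or -0.02 and 0.01 with printing blocks centred. In that liver Lum, a matrix proteoglycan, had -0.17 and Pdgfrb, a receptor of pericytes, 0.09, each with 1 sign. In that brown adipose tissue Sparc, a matrix glycoprotein, had 0.55, Dcn, another proteoglycan, -0.20 and Pdgfrb 0.19, each with 1 sign on both arrays. The lymphocyte gene Ighm had 0.21 in liver and 0.28 in brown adipose tissue of the second design, and 3 erythroid genes had medians of -0.06 and 0.01, the liver value being -0.03 with printing blocks centred. The part of these cell types in the ratios of the members was not tested.

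The genes most like each member were found by Pearson correlation over the 10 arrays of a design, which share dyes, printing blocks and RNA pools, so the values describe these arrays. The correlations are of dye ratios not turned by line, and include the arrays without a difference of line. They are therefore not correlations of the ratio between the lines. For Ctsb they were Atp5a1 at 0.98, Cdo1 at 0.98, Suclg2 at 0.97, Atp5b at 0.97 and Idh1 at 0.96. Without the liver array at 2.18 these were 0.93, 0.95, 0.93, 0.92 and 0.88. For Ctsd on the first design they were Pmm2 at 0.95, Fdft1 at 0.94, Slc25a1 at 0.93, Pgk1 at 0.92 and Fth1 at 0.92, the last printed in the same block. For Ctsd on the second design they were Col5a2 at 0.98, Stxbp2 at 0.97 and Gyg, Spsb1 and Pcnx at 0.96. For Lyz2 they were Polr2c at 0.92, Wbp1l at 0.84, Dnajc8 at 0.84, Fam234a at 0.82 and S100a13 at 0.81, and Wbp1l and S100a13 share its printing block. None of the genes named is of the lysosomal lists. Between members, Ctsb and Ctsd correlated at 0.71, Lyz2 and Ctsb at 0.20 and Lyz2 and Ctsd at 0.16. The value for Lyz2 and Ctsb rests on single arrays, being -0.03 without the array at 2.18 for Ctsb and 0.40 without the array farthest out for Lyz2. For Lyz2 and Ctsd it was 0.21 without the array farthest out for Lyz2 and 0.10 without that for Ctsd.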

How the data were processed

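Dye ratios were deposited by the authors as 1 log value per spot and array, without intensities; the sources used here name no log base, numerator or normalization, and array medians were not at 0. The deposited values were taken as log2, which is an assumption, and a natural logarithm would change the folds. All 20 arrays were used, with groups and dyes from the channel labels. The median of the clone spots was set to 0 on every array, the paired spots of a clone were averaged, ratios were turned to Fob3b over F, and the dye orientations of a pool pair were averaged. All 7680 clones of a design were fitted with limma 3.58.1 in R 4.3.3, tissue as factor, Benjamini-Hochberg adjustment, threshold 0.05. P-values measure the spread between pools. Gene means average clones matched to 1 gene, 3838 genes (first design) and 4075 genes (second), with symbols from the supplied platform annotation. Intensities were not used here, so signal over background is unknown.

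The members and lists were chosen with earlier results of these data known. Named genes were all member clones, per list up to 4 genes with the largest mean among those of 1 sign on every array, the 5 genes most like each member, and related genes; other list genes were named after their values were seen. The lists were lysosomal proteases, cathepsin inhibitors, hydrolases and activators, membrane and acidification, and markers of macrophages, neutrophils, lymphocytes, adipocytes, hepatocytes, muscle, erythroid cells and endothelial and stromal cells. The fit was checked on simulated data. Alternatives were centring, spread, single spots, single dyes, pool pairs left out, tissues fitted alone, a replicate block, crossed pools and 1 array left out. Promoters are from RefSeq on GRCm38.p6, where 2 of the 3 members matched; Ctsb was not in the table used.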

Additional observations from a re-analysis of the deposited data

Results flagged for a closer look

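Of 40 lysosomal and immune genes of the first design, 5 had both liver pool pairs on 1 side of 0 and both brown adipose pairs on the other, as did 11.6% of all genes; no member gene did. Each had a negative mean in liver and a positive mean in brown adipose tissue. By single arrays none of the 5 had 1 sign in either tissue, and Npc2 and Laptm5 were positive on 2 of 4 arrays in both. Liver minus brown adipose tissue was -0.52 for Ctsc, from -0.31 in liver and 0.21 in brown adipose tissue. It was -0.50 for Lgmn, from -0.23 and 0.28, -0.59 for Npc2, from -0.07 and 0.52, -0.36 for Laptm5, from -0.26 and 0.10, and -0.35 for Aga, the aspartylglucosaminidase, from -0.21 and 0.14. In the limma contrast of the tissues none of the clones of these genes passed the adjusted threshold, and each had an adjusted p of 1.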

How the results depend on the processing

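The number of clones called moved with the setting. In liver of the second design the 29 calls became 159 without centring, 0 with printing blocks centred, 0 with the first spot, 75 with the second spot, 0 with the crossed-pool arrays added and 2 where each array counted as a replicate. In liver of the first design leaving out a pool pair gave 42 to 140 calls. In brown adipose tissue of that design the 0 calls became 1 without centring and 4 with the tissue fitted alone, and leaving out a pool pair gave 0 to 1. For liver minus brown adipose tissue it gave 0 to 95; the lone pair is then assumed to vary like the others. With a replicate block by pool number the first design had 0 calls in liver, 0 in brown adipose tissue and 0 in their difference, with 527, 146 and 491 unadjusted. Pools of the same number deviated together at a correlation of 0.38 over clones, which rests on 2 pairs, and the labels do not say that the tissues share animals. On the second design neither the block nor leaving out a pool pair could be fitted, for want of residual degrees of freedom.

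Without centring, the Ctsd mean was -0.39 in liver of the second design and 0.74 and 0.09 in brown adipose tissue of the 2 designs in order; Lyz2 was -0.53 in liver and 0.26 in brown adipose tissue, and Ctsb was 0.49 in brown adipose tissue. The median of all genes then lay at -0.11 in liver and 0.30 in brown adipose tissue of the first design, and at -0.36 and -0.33 in those of the second, so these values hold that shift. With printing blocks centred, Ctsd on the first design was 0.33 in brown adipose tissue and -0.29 in liver, and Lyz2 in liver was -0.33. The Ctsd mean in brown adipose tissue of the first design was 0.52 with the first spot, 0.41 with the second, 0.39 with Fob3b in red and 0.55 with Fob3b in green. Leaving out a pool pair gave 0.43 to 0.50 for it, -0.50 to -0.39 for Lyz2 in liver and -1.20 to 0.16 for Ctsb in liver. Without the liver array chosen after seeing the data, Lyz2 was -0.50 and Ctsb -0.03 in liver. Of 38 list medians, block centring moved 9 beyond the spread between pool pairs or arrays and turned 5, and no centring moved 29 and turned 13. The cause was not tested. Few arrays and unknown signal over background limit every value.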
